A study of Homo sapiens with 6 samples.

Results

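The ZNF genes are human genes whose symbol is ZNF and a number, most of which encode proteins with zinc fingers of the C2H2 kind. They were measured here in MDA-MB-231 cells, a triple-negative breast cancer cell line of mesenchymal appearance, on whole-genome 3' expression arrays. The 3 tested samples had been transfected with a single siRNA against ING2 and the 3 control samples with a non-targeting siRNA, and all 6 came from the same line and carried no other labelled treatment. The treatment label places RNA collection at 4 days after transfection and the extraction label places lysis at 3 days. The labels name only that siRNA, so an effect of losing ING2 and an effect particular to that siRNA cannot be told apart. Nothing in the labels says that the replicates came from separate cultures, and p-values therefore reflect the variation among the 6 samples, whether technical or biological.

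Members were chosen by their name and by the mean of the log2 intensity over all 6 arrays: a symbol of ZNF, a number and at most 1 letter, and a mean of 8 or more. For a gene with several probe sets, the probe set with the highest mean stood for it. Of 466 ZNF genes on the array, 170 reached that level, out of 19777 genes in all and 8561 genes of any name at that level. The choice used the mean over both groups together and not the difference between them, so the level of the members is a description and their difference between groups was tested. In 154 members the mean was 8 or more in both groups taken separately, in 5 only in the ING2 siRNA group and in 11 only in the control group. The last of the members to enter were ZNF195 at a mean log2 intensity of 8.01 and ZNF618 and ZNF83 at 8.02, and the first to stay out were ZNF438 at 7.99 and ZNF26 and ZNF16 at 7.98. Detection calls were not used here, and "well measured" stands only for this level, which lies above the median of 7.45 over all genes.

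A C2H2 zinc finger is a short loop of protein held by a zinc ion and reads a few bases of DNA, and tandem fingers read longer sites. The largest class in humans carries a KRAB domain, which recruits the corepressor TRIM28 and through it the histone methyltransferase SETDB1, heterochromatin proteins and DNA methylation, mostly at transposable elements. Many of these genes lie in clusters on chromosome 19. Other ZNF proteins have no KRAB domain and act as activators, as subunits of corepressor complexes, or on RNA, ribosomes and the spindle. ING2 itself is a PHD finger protein that recognises a histone mark of active promoters and belongs to a histone deacetylase complex built on SIN3.

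The siRNA's own target was measured at 163, 188 and 161 intensity units in the ING2 siRNA arrays, against 1400, 1349 and 1324 in the control arrays. This is 12.5% of the control level (log2 change -2.997, SE 0.0885, limma adjusted p = 1.85e-07). The marker lists fitted the labelled line in part. The mesenchymal markers VIM, CD44, CAV1 and AXL were bright and SPARC was dim (mean log2 5.81). All 5 luminal markers (ESR1, PGR, GATA3, FOXA1 and ERBB3) lay below a mean log2 of 8, GATA3 and ERBB3 only just, at 7.91 and 7.88. The fibroblast marker COL1A1 lay above 8, at 8.59. The summed intensity of the mesenchymal list was 33910 to 37750 in the ING2 siRNA arrays and 37090 to 38780 in the control arrays. In the ING2 siRNA arrays the luminal list summed to 582 to 643, 3 fibroblast markers to 616 to 629 and 3 of 4 blood cell markers to 186 to 210, against 627 to 643, 574 to 679 and 175 to 197 in the control arrays. Of these, DCN was higher (log2 change 0.35) and LUM (-0.87) and LYZ (-0.51) were lower after ING2 siRNA. The 3' minus 5' log2 difference of the GAPDH control probe sets, a sign of RNA integrity, was 0.27, 0.33 and 0.35 in the ING2 siRNA arrays and 0.19, 0.20 and 0.22 in the control arrays. That of ACTB was 0.49, 0.65 and 0.48 against 0.37, 0.53 and 0.58. The part of these markers and of RNA integrity in the results below was not tested.

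The arrays of a group did not all resemble each other most. Across the 170 members, ING2 siRNA replicate 2 and control replicate 1 correlated at r = 0.971, whereas control replicate 1 correlated with control replicates 2 and 3 at 0.957 and 0.965. ING2 siRNA replicates 1 and 3 stood farthest from control replicates 2 and 3, at r between 0.913 and 0.925. These correlations are across genes, which are not independent replicates, and serve only to describe the arrays. Results are therefore also given without these arrays.

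Few of the ZNF genes passed the test of the difference between ING2 siRNA and control arrays. Of the 170 members, 9 were lower and 3 were higher after ING2 siRNA, and 158 did not pass (limma, threshold of 0.05 on the p adjusted by Benjamini-Hochberg across all genes). Called members made up 7.06% of the members, against 8.29% of all genes and 10.5% of all genes at the same mean level. In the downward direction the members had 5.29%, against 4.67% of all genes and 8.81% of genes at the same level, and in the upward direction 1.77%, against 3.62% and 1.72%. Of the 9 lower members, 3 (ZNF83, ZNF770 and ZNF140) had a mean of 8 or more only in the control group. In these bulk samples, less RNA per cell and fewer cells with the RNA cannot be told apart. The members' share was near the background, and the count says nothing particular about ZNF genes. In 54 members the 2 groups did not overlap, 26 with all ING2 siRNA arrays lower and 28 with all of them higher, which is 31.8% of the members, against 36.5% of all genes and 41.9% of genes at the same level.

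The calls depended on single arrays. Without ING2 siRNA replicate 2 there were 24 lower and 4 higher members, without control replicate 1 there were 22 and 7, and without both arrays 37 and 8. Without ING2 siRNA replicate 1, ING2 siRNA replicate 3, control replicate 2 or control replicate 3 no member passed limma's adjusted threshold, with 41, 30, 33 and 37 members at an unadjusted p under 0.05, against 53 with all arrays. In the same 4 fits only 2 or 3 of all 19777 genes passed, so the loss was not confined to the members. With all arrays, 3104 of the 8561 genes at the same level and 6515 of all genes had an unadjusted p under 0.05 (limma). Another scaling moved the split between directions: median centring gave 18 lower and 2 higher, quantile normalization 6 lower and 10 higher, and cyclic loess 7 and 3.

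**Figure D1:**
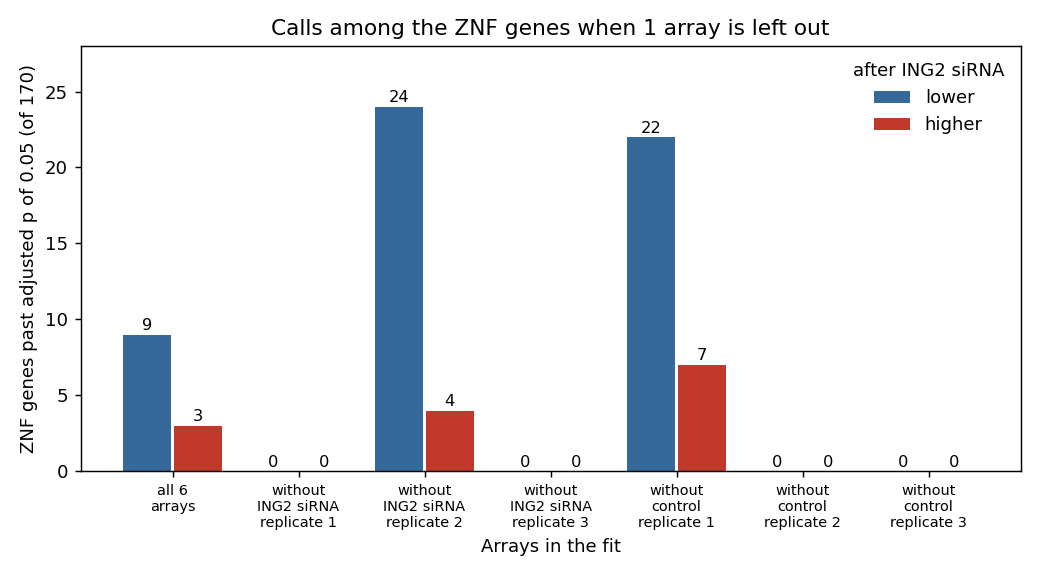
Number of ZNF genes called lower (blue) or higher (red) after ING2 siRNA, with all 6 arrays and with each array left out in turn. With all arrays there were 9 and 3 calls, leaving out ING2 siRNA replicate 2 or control replicate 1 gave more, and leaving out any of the other 4 arrays gave 0.

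Taken over all members, the log2 changes (ING2 siRNA minus control) centred near 0. Their median was -0.01, with quartiles of -0.19 and 0.12, against a median of -0.06 over all genes at the same mean level and 0.06 over all genes. Of the 170 members, 90 lay below 0 and 80 above it, 56 lay within 0.1 of 0, and 7 had a size over 0.5. The range ran from -0.67 for ZNF83 to 0.49 for ZNF598. Replicate SDs on the log2 scale had medians of 0.10 in the ING2 siRNA arrays and 0.12 in the control arrays. The 296 ZNF genes below the level of 8 had a median change of 0.00, with 8 lower and 8 higher. This is 2.70% in each direction, against 4.67% lower and 3.62% higher of all genes.

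**Figure D2:**
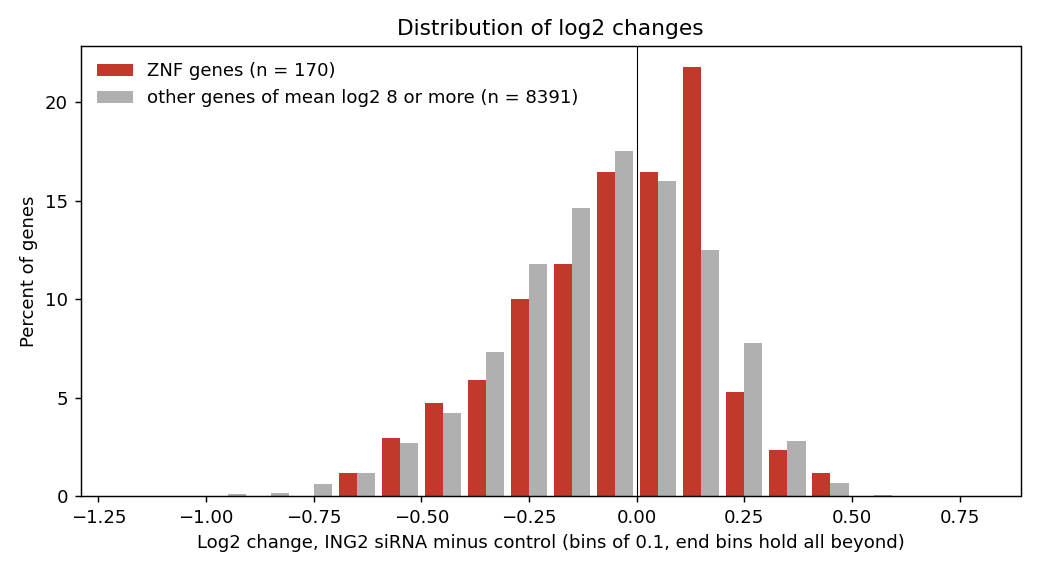
Share of genes, in percent, by log2 change (ING2 siRNA minus control, bins of 0.1) for the 170 ZNF genes (red) and the other 8391 genes of mean log2 intensity 8 or more (grey). The bin from 0.1 to 0.2 held the most ZNF genes (21.8%, against 12.5% of the others) and the bin from -0.1 to 0 the most other genes (17.5%, against 16.5% of the ZNF genes), with medians of -0.01 and -0.06.

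The median change by level was as follows. Among the 66 members with a mean log2 of 8 to 8.5 the median change was 0.00, among 45 members from 8.5 to 9 it was 0.03, among 44 from 9 to 10 it was -0.08 and among 15 at 10 or more it was -0.07. Other genes in the same bins had medians of 0.02, -0.02, -0.04 and -0.09. In the brightest bin no ZNF gene passed limma's adjusted threshold and 3 had an unadjusted p under 0.05, as had 1257 of 3581 other genes in that bin. The calls fell as 3 lower and 1 higher in the lowest bin, 2 and 2 in the next and 4 and 0 between 9 and 10. From the lowest bin to the brightest this is 6.06%, 8.89%, 9.09% and 0% of the members, against 10.1%, 10.4%, 11.2% and 10.4% of other genes in the same bins. Of the 9 falls, ZNF83, ZNF770 and ZNF140 had a mean of 8 or more only in the control group, so they reached the list only through the group where they were high.

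**Figure D3:**
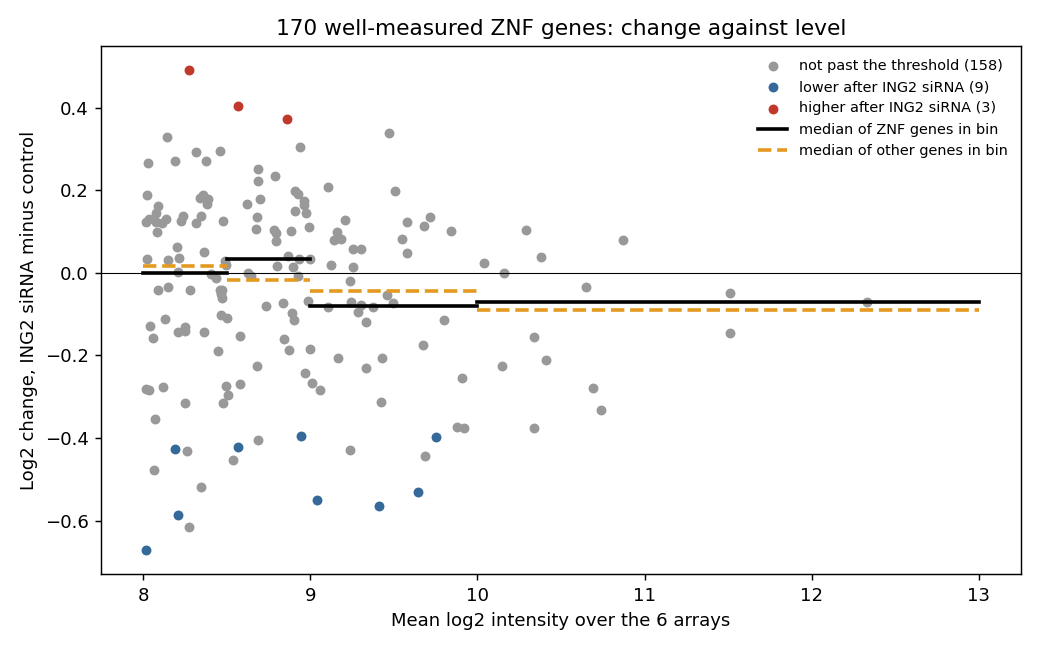
Log2 change (ING2 siRNA minus control) against mean log2 intensity over the 6 arrays for each of the 170 ZNF genes, with the median per bin for ZNF genes (black) and for other genes (dashed). The 9 falls and 3 rises past the threshold lie below a mean log2 of 10, and the 15 genes above it lie between -0.38 and 0.10.

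Promoter sequences from RefSeq (build GRCh38.p14, from 250 bases before to 50 bases after the first listed start) were matched by symbol for 140 of the 170 members, and the other 30 are named only. The 5 promoters shown belong to the 3 falls and the 2 rises of largest size among called members with a match, so that the control regions of genes that moved in opposite directions can be read side by side. ZNF83 has 2 listed starts and the first is shown. Capitals mark matches, on either strand, to 8 motifs: the GC box (GGGCGG), the CCAAT box (CCAAT), an ETS core (CCGGAAG), the core of YY1 (GCCATNTTG), of NRF1 (GCGCATGC), of ZNF143 (ACTACAA) and of a cyclic AMP response element (TGACGTCA), and the TATA box (TATAAA). Where matches touch, as in ZNF598, the capitals run on.
ZNF83, chr19:52690447-52690746, minus strand: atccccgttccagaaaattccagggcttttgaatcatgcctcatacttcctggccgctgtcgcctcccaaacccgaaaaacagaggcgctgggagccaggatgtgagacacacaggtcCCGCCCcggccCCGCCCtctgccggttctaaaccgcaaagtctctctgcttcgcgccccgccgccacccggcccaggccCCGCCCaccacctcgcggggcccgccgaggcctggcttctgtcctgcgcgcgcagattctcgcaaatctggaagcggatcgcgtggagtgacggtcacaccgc
ZNF770, chr15:34988238-34988537, minus strand: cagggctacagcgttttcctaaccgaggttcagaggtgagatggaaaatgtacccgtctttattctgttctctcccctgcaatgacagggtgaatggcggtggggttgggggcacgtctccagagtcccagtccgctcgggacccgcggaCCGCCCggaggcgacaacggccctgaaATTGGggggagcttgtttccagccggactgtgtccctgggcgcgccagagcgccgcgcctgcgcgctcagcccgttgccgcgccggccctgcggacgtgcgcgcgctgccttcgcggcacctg
ZNF277, chr7:112206445-112206744, plus strand: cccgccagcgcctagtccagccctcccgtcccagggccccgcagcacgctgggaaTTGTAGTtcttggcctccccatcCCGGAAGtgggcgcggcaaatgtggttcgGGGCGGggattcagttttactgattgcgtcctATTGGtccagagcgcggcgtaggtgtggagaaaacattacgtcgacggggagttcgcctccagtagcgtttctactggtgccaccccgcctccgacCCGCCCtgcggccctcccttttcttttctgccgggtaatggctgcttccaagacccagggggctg
ZNF598, chr16:2009772-2010071, minus strand: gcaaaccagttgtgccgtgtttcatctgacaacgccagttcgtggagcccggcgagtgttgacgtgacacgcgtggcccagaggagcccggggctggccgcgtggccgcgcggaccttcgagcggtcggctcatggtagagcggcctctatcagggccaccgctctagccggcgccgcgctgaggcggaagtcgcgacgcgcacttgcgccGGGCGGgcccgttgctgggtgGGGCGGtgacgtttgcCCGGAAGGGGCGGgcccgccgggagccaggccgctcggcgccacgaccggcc
ZNF579, chr19:55580799-55581098, minus strand: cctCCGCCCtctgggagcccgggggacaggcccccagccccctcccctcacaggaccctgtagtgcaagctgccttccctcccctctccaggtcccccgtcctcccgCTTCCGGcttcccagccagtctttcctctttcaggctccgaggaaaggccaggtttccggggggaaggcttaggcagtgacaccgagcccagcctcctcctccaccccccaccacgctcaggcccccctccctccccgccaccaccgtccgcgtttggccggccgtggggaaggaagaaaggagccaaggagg

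All 5 windows held a GC box: ZNF83 and ZNF598 had 3 each, ZNF277 had 2 and ZNF770 and ZNF579 had 1 each. Of the falls shown, ZNF770 and ZNF277 held a CCAAT box, and neither rise did. The ETS core was in ZNF277, ZNF598 and ZNF579, in ZNF598 starting at base -2 from the start of transcription, and ZNF277 also held the ZNF143 core. A match is a run of letters and not a binding site, and where there is none it says only that these letters are absent from this window.

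Across the 140 members with a promoter, the ETS core was the motif whose share stood farthest, in percentage points, from that of other genes at the same level. It was present in 42.1% of the members (59 of 140), against 21.0% of 7081 other genes at the same mean level, 14.2% of 15843 protein-coding genes and 10.7% of all 27305 promoters. The ZNF143 core was in 10% of the members (14 of 140) against 3.86% of other genes at the same level, the cyclic AMP element in 6.43% against 3.63% and the NRF1 core in 9.29% against 5.96%. The GC box (70.7% against 72.9%), the CCAAT box (40.7% against 37.1%) and the YY1 core (7.14% against 6.09%) had similar shares, and the TATA box was found in 3 members (2.14% against 4.84%). The ETS core was in 29 of the 58 matched promoters on chromosome 19 and in 30 of the 82 elsewhere. Many of these genes arose from each other by duplication, so their promoters are not independent of each other. The 59 members with the ETS core had a median change of -0.03 and 2 falls and 2 rises past the threshold, and the 81 without it had -0.01 and 5 falls and 0 rises. Members with a CCAAT box (57 of 140) included 6 of the 7 matched falls and 0 of the 2 matched rises. The medians were -0.05 with and 0.00 without the motif. Of all genes at the same level 8.81% were lower and 1.72% higher, and their shares by motif were not computed. A link between these motifs and the direction of change was not tested.

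The plot of the called ZNF genes by array shows the 12 members in order. The fall of largest size was in ZNF83, a C2H2 gene of chromosome 19. It measured 178, 248 and 197 intensity units in the ING2 siRNA arrays, against 277, 359 and 353 in the control arrays. The groups did not overlap, and the gap between ING2 siRNA replicate 2 and control replicate 1 was small beside the spread within each group. The log2 change was -0.67 (SE 0.14, limma adjusted p = 0.0293), or 62.8% of the control level. ZNF770, on chromosome 15, showed the same arrangement with 193, 283 and 258 units after ING2 siRNA, against 313, 378 and 404 in controls (log2 change -0.59, SE 0.15, limma adjusted p = 0.0411). Both genes had a mean log2 below 8 after ING2 siRNA (7.68 and 7.92) and reached the list only through the control arrays. Their falls are therefore given as a description.

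**Figure D4:**
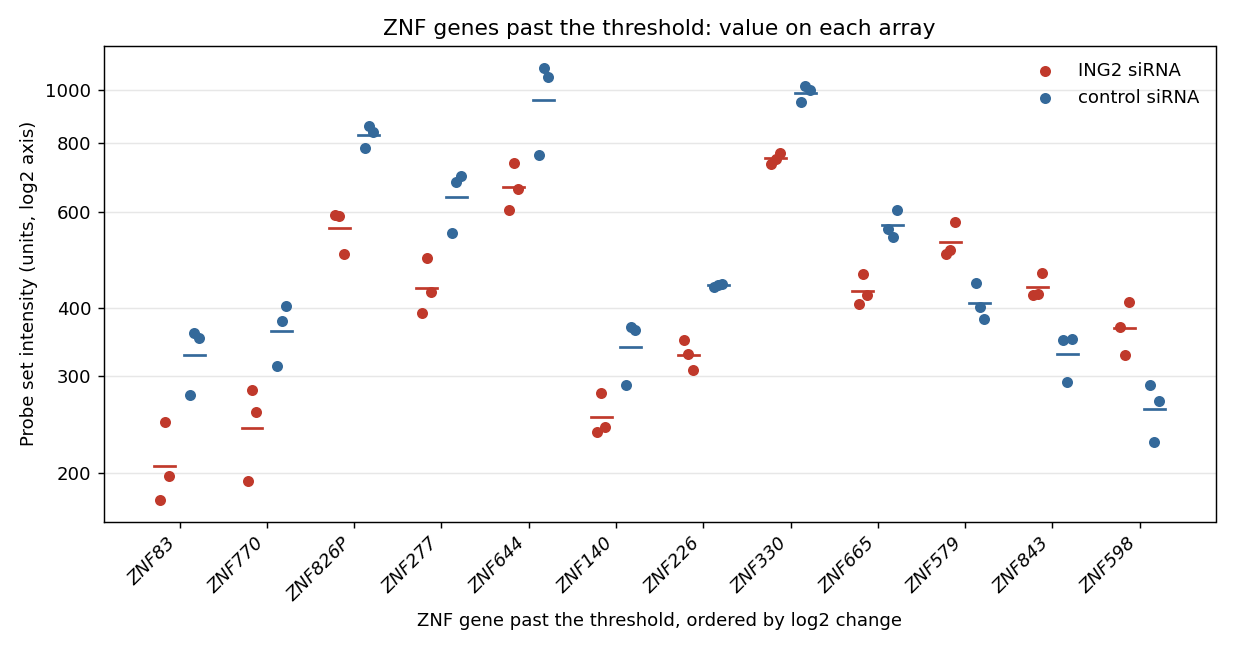
Probe set intensity on each array (log2 axis) for the 12 ZNF genes past the threshold, ordered by log2 change, with ING2 siRNA arrays in red and control arrays in blue; bars are means of the log2 values (n = 3 each). ZNF330 has close replicates and a clear gap. Control replicate 1 is the lowest control in 8 of the 9 falls, ZNF330 among them. It stands well below the other controls in ZNF83, ZNF770, ZNF277, ZNF644 and ZNF140.

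ZNF644, a partner of the histone H3 lysine 9 methyltransferases EHMT1 and EHMT2, measured 603, 737 and 660 units after ING2 siRNA, against 763, 1100 and 1056 in controls. Control replicate 1 was close to the highest ING2 siRNA array, and the groups did not overlap. The log2 change was -0.53 (SE 0.14, limma adjusted p = 0.0461). Under quantile normalization and cyclic loess the call was lost, at adjusted p = 0.0595 and 0.0620. A dimmer probe set of the gene read 107, 93.5 and 91.8 units, against 187, 195 and 150 (log2 change -0.86, adjusted p = 0.00741 over all probe sets), and the dimmest had a change of 0.16.

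ZNF277, whose protein binds a ribosomal protein of the small subunit, measured 391, 494 and 428 units after ING2 siRNA, against 548, 679 and 698 in controls. All 3 ING2 siRNA arrays were below all controls (log2 change -0.55, SE 0.12, limma adjusted p = 0.0310). ZNF330, a nucleolar protein, was above 700 units in every array and had close replicates: it measured 733, 750 and 769 units after ING2 siRNA, against 950, 1017 and 1000 in controls. Its log2 change was -0.40 (SE 0.08, limma adjusted p = 0.0261), and the gap between groups was wider than the range within either. A second, dimmer probe set of ZNF330 had a log2 change of -0.14 with overlapping groups.

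ZNF140, ZNF226 and ZNF665 are zinc finger genes of the KRAB class. ZNF140 measured 237, 280 and 242 units after ING2 siRNA, against 289, 369 and 365 in controls (log2 change -0.43, SE 0.11, limma adjusted p = 0.0484), with control replicate 1 only just above ING2 siRNA replicate 2. Its call was lost under quantile normalization (adjusted p = 0.0589) and cyclic loess (0.0505). Like ZNF83 and ZNF770, ZNF140 had a mean log2 of 8 or more only in the control arrays. ZNF226 measured 350, 329 and 307 units, against 438, 441 and 441, so its 3 controls were almost equal (log2 change -0.42, SE 0.08, limma adjusted p = 0.0260). ZNF665 measured 407, 462 and 423 units, against 557, 540 and 603 (log2 change -0.40, SE 0.09, limma adjusted p = 0.0318), and its call was lost under quantile normalization (0.0545). Its probe set is of the x type, which by its design can bind related transcripts, so close relatives may share its signal. The same holds for the pseudogene ZNF826P, at 592, 588 and 502 units after ING2 siRNA, against 784, 858 and 839 in controls (log2 change -0.56, SE 0.09, limma adjusted p = 0.0193).

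The 3 rises were smaller than the falls of largest size. ZNF598, the ubiquitin ligase that marks collided ribosomes, measured 369, 327 and 409 units after ING2 siRNA, against 290, 227 and 270 in controls. The groups did not overlap, and the log2 change was 0.49 (SE 0.12, limma adjusted p = 0.0359), or 141% of the control level. ZNF843 measured 423, 425 and 463 units, against 349, 293 and 351 (log2 change 0.40, SE 0.10, limma adjusted p = 0.0362). ZNF579 measured 501, 510 and 575 units, against 444, 401 and 381 (log2 change 0.37, SE 0.09, limma adjusted p = 0.0415), and lost its call under median centring (adjusted p = 0.0503). The probe sets of ZNF598 and ZNF843 are of the x type. The other probe set of ZNF843, dimmer (mean log2 6.57) and not of the x type, had overlapping groups and a log2 change of 0.0084. A second ZNF598 probe set that is not of that type read 320, 337 and 333 units after ING2 siRNA, against 259, 265 and 244, a change of 0.37 (adjusted p = 0.0394 over all probe sets).

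Of 394 probe sets of the 170 members, each tested on its own over all 54613 probe sets, 24 in 21 members passed, a share of 6.09% against a background of 5.28%. This fit was added after the data had been seen. Of the 24, 8 were the brightest probe set of their gene and 16 were others, and 12 members outside the 12 calls had such another probe set past the threshold. Of the 224 other probe sets, 152 had a change of the same sign as the brightest one. Of 122 members with several probe sets, 71 had all of them on the same side of 0, and among 9 called members with several, 5 did. ZNF226, ZNF277, ZNF644 and ZNF770 were the called members whose probe sets disagreed in sign. When all probe sets of a gene were averaged, the members had 17 falls and 4 rises, of which 5 falls and 2 rises were among the 12 calls, and ZNF83, ZNF770, ZNF277, ZNF226 and ZNF843 no longer passed, at -0.40, -0.25, -0.28, -0.09 and 0.21 (adjusted p from 0.0570 to 0.356).

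The genes named in this paragraph were chosen after their values were seen, for a second probe set that passed where the brightest did not. ZNF22, a zinc finger protein first described in tooth development, had the lowest change of these. Its brightest probe set measured 1520, 1616 and 1434 units after ING2 siRNA, against 1733, 2084 and 1948 in controls, with no overlap and a log2 change of -0.33 (SE 0.09, limma adjusted p = 0.0539 over all genes). The other read 164, 156 and 147 units, against 358, 323 and 288, a change of -1.05 (SE 0.10, adjusted p = 0.00258 over all probe sets). In ZNF146, a protein made almost only of fingers, the dimmer probe set read 275, 282 and 259 units, against 433, 529 and 434 (change -0.77, adjusted p = 0.00686), while the brighter had -0.28 with overlapping groups. In ZNF281 both dimmer probe sets passed, with changes of -0.76 (adjusted p = 0.0459) and -0.66 (0.0241), beside -0.44 in the brightest. One ZNF24 probe set changed by -0.50 (0.0197) and 1 of ZNF592 by 0.39 (0.0457). In others the second probe set went against the brightest: ZNF585B had -0.15 in the brightest and 0.58 (0.0149) in a dim one, ZNF512B had 0.02 and -0.37 (0.0419) and ZNF252P had 0.02 and -0.35 (0.0492). ZNF45, ZNF227, ZNF638 and ZNF830 made up the rest, with changes of -0.46, -0.50, -0.54 and -0.38 in the probe set that passed.

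**Figure D5:**
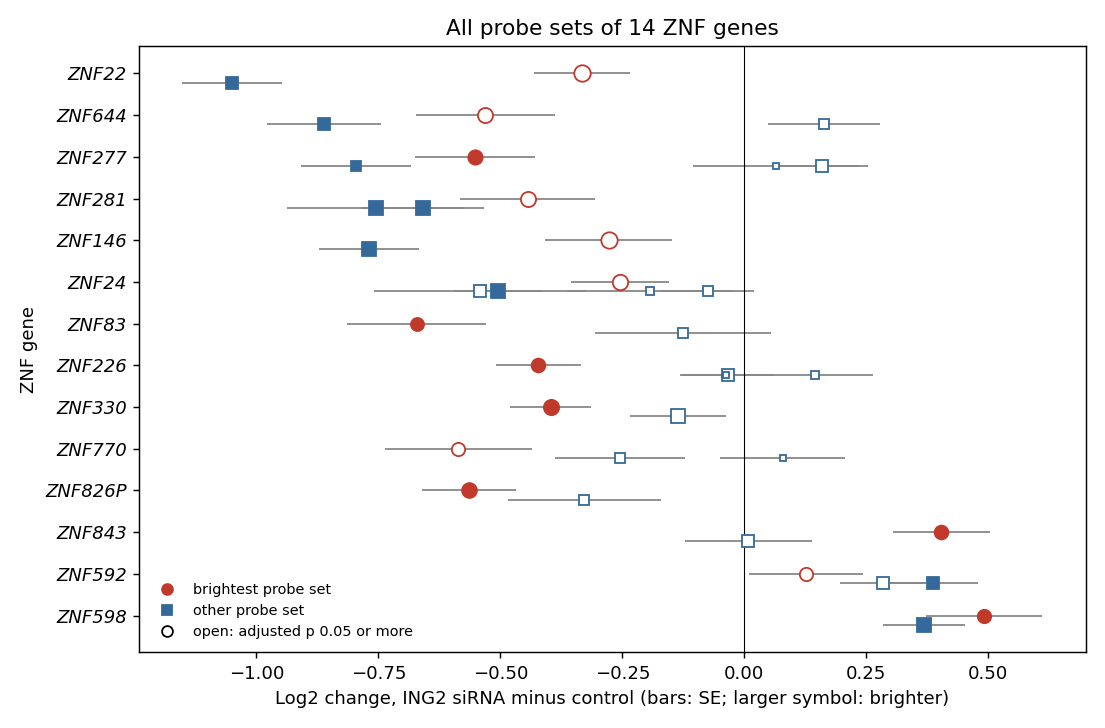
Log2 change with its SE for every probe set of 14 ZNF genes chosen after their values were seen, with the brightest probe set as a red circle and the others as blue squares; open symbols have an adjusted p of 0.05 or more over all probe sets and larger symbols are brighter. In ZNF22 the dimmer probe set lies at -1.05 and the brighter at -0.33, and in ZNF226 only the brightest lies away from 0.

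Proteins known as corepressor subunits or activators were listed whether or not they passed. By the brightest probe set, all 5 that were members (ZNF644, ZNF281, ZNF217, ZNF143 and ZNF274) had lower values in every ING2 siRNA array than in every control array, and 1 of the 5, ZNF644, passed. Of all genes at the same level 26.3% were lower without overlap, and 13.8% of all genes, and the list was chosen with earlier results known. ZNF217, a breast cancer oncoprotein that binds the CTBP corepressors, measured 799, 940 and 813 units after ING2 siRNA, against 944, 1226 and 1152 in controls. The groups nearly touched, and the log2 change was -0.38 (SE 0.11, limma adjusted p = 0.0617). ZNF281, a repressor that works with NuRD, measured 566, 838 and 738 units, against 888, 977 and 1019 (log2 change -0.44, SE 0.13, limma adjusted p = 0.0611). ZNF143, an activator that binds at promoters, measured 665, 604 and 583 units, against 709, 815 and 776 (log2 change -0.31, SE 0.09, limma adjusted p = 0.0558). ZNF217, ZNF281 and ZNF143 passed under median centring, at adjusted p = 0.0467, 0.0490 and 0.0420. ZNF274, which recruits SETDB1 to the ends of ZNF genes, had a log2 change of -0.12 (adjusted p = 0.324). Other probe sets of these genes did not all fall. A dim one of ZNF143 read 40.1, 36.3 and 47.6 units after ING2 siRNA, against 35.5, 32.1 and 33.0 in controls (change 0.29). The other of ZNF274 (mean log2 8.27) had overlapping groups and a change of -0.03. Both dimmer ones of ZNF281 were lower, and those of ZNF644 had changes of -0.86 and 0.16. Of the list's genes below the level of 8, ZNF148 had a log2 change of -0.36 and ZNF350 of -0.29 with overlapping groups and ZNF516 of 0.01, and ZNF410 was not measured.

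The proteins of RNA, ribosomes and the spindle gave no common direction: of 7, all of them members, 4 lay below 0 and 3 above, and ZNF598 alone passed. ZNF207, which delivers BUB3 to kinetochores and is 1 of the 5 brightest members, measured 2874, 2962 and 2775 units after ING2 siRNA, against 2724, 3168 and 3025 in controls (log2 change -0.05). The sign of this change turned under quantile normalization and cyclic loess. All 9 ZNF207 probe sets had a change below 0, and none passed when tested on its own. The next brightest (mean log2 11.12) read 2243, 1997 and 2034 units after ING2 siRNA, against 2365, 2520 and 2284. Its groups did not overlap, at a log2 change of -0.19. ZNF326, of a complex that links the polymerase with splicing, had a log2 change of -0.28 (adjusted p = 0.220) and ZNF638, an RNA-binding protein, of -0.22 (0.205). ZNF593 and ZNF622, whose yeast homologues act on the large ribosomal subunit, had log2 changes of 0.00 and 0.04, and the double-stranded RNA-binding ZNF346 of 0.14. By the brightest probe set, the groups overlapped in all of these 7 but ZNF598.

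Among the partners of the chromatin reader ZMYND8, ZNF532 had a log2 change of -0.12 and ZNF592 of 0.13, and ZNF687, below the level of 8, of 0.15, none past the threshold. ZNF451, a SUMO ligase, measured 819, 994 and 692 units after ING2 siRNA, against 996, 1244 and 988 in controls, with overlapping groups (log2 change -0.37, limma adjusted p = 0.0990). Its probe sets disagreed in sign. The next brightest (mean log2 9.45) read 673, 917 and 791 units, against 542, 747 and 598, a change of 0.34. A dimmer one (mean log2 8.61) changed by -0.44, and the dimmest by 0.02 and 0.23. ZNF395, reported as induced by hypoxia, was among the brightest with a log2 change of 0.08. ZNF675, listed with ZNF451 and ZNF395, lay far below the level of 8 (mean log2 3.67). It measured 11.1, 11.1 and 10.3 units after ING2 siRNA, against 14.2, 16.3 and 14.4 in controls. Its log2 change was -0.47 (limma adjusted p = 0.0251), so it passed although it is not a member. The brightest of all was ZNF706 (mean log2 12.33), at 5233, 4851 and 4956 units after ING2 siRNA, against 5388, 5104 and 5300 in controls, with overlapping groups and a log2 change of -0.07. ZNF664 (mean log2 11.51) had a log2 change of -0.15. Members with larger differences can miss the threshold: ZNF367 had the next largest size after ZNF83, at -0.62, with no overlap (SE 0.18, limma adjusted p = 0.0570). ZNF367 too had a mean log2 of 8 or more only in the control arrays (7.965 after ING2 siRNA).

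By position in RefSeq, 68 of the members lay on chromosome 19, with 4 falls, 1 rise and a median change of -0.04. The other 102 had 5 falls, 2 rises and a median of 0.01. Other genes at the same level had a median of 0.08 on chromosome 19 (458 genes) and -0.07 on the other chromosomes (7930 genes). On chromosome 19, 5.88% of the members were lower and 1.47% higher, against 0.655% and 3.3% of the other genes. Elsewhere 4.90% of the members were lower and 1.96% higher, against 9.36% and 1.63% of the other genes. Among members that are next to each other in the RefSeq gene order there were 21 pairs, 12 of them on chromosome 19. In 17 of the 21 both changes had the same sign (9 of the 12 on chromosome 19), in 2 a call was present and in 0 both were called. The pairs share members, 36 in all, and the chromosome 7 run named next supplied several of them. The same share was not computed for neighbouring genes of other names, so the count says nothing particular about ZNF genes. On chromosome 7 the run ZNF398, ZNF282, ZNF212, ZNF783, ZNF777 and ZNF746 had changes between 0.03 and 0.17, none past the threshold (limma). Clustered relatives can share probe sequence, so neighbouring values need not be separate measurements.

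Genes that work with the ZNF proteins were read from the same fit. A list of 26 cofactor genes held mostly partners of KRAB zinc finger proteins. It also held CTBP1, CTBP2, RCOR1 and ZMYND8, which are not particular to that class. All 26 were at the level of 8 or more. Of them, 4 were lower (15.4%) and 0 higher (limma, 9 with an unadjusted p under 0.05), with a median change of -0.11. CTBP2 was 1 of the 4, so the share is not one of KRAB partners alone. At the same level 8.81% of all genes were lower and 1.72% higher, with a median of -0.06. Of those genes, 3104 of 8561 had an unadjusted p under 0.05. TASOR, a subunit of the HUSH silencing complex, measured 748, 991 and 778 units after ING2 siRNA, against 1059, 1349 and 1191 in controls (log2 change -0.52, SE 0.13, limma adjusted p = 0.0384). The corepressor CTBP2 changed by -0.48 (SE 0.12, limma adjusted p = 0.0402) and the chromatin remodeller ATRX by -0.44 (SE 0.10, limma adjusted p = 0.0362), and both calls were lost under quantile normalization (0.0798 and 0.0609) and cyclic loess (0.0740 and 0.0562). Averaged over its probe sets, CTBP2 had -0.14 and did not pass. The fourth was PPHLN1, another HUSH subunit, at -0.43. TRIM28, the corepressor on which KRAB proteins act, measured 2027, 2361 and 2473 units, against 2047, 1917 and 1938, with overlapping groups (log2 change 0.21, limma adjusted p = 0.145), and SETDB1 had a log2 change of 0.11. Without ING2 siRNA replicate 1 or 3, or control replicate 2 or 3, no gene of this list passed.

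Zinc finger genes of the ZBTB, ZSCAN, ZKSCAN, ZFP, KLF and SP names at the same level numbered 54, of which 2 were lower (3.70%), 0 were higher (limma; 16 had an unadjusted p under 0.05) and the median change was -0.03, against the same 8.81% lower, 1.72% higher and median of -0.06. The names were taken as they stand, so a few of these genes carry no C2H2 fingers. Of all 8561 genes at the same level, 3104 had an unadjusted p under 0.05. ZBTB38, which binds methylated DNA, measured 2108, 2432 and 2375 units after ING2 siRNA, against 2851, 3434 and 3326 in controls, without overlap (log2 change -0.47, SE 0.10, limma adjusted p = 0.0298), and its call was lost under quantile normalization (0.0535). SP3, a factor that binds GC boxes, changed by -0.54 (SE 0.14, limma adjusted p = 0.0482) although ING2 siRNA replicate 2 was slightly above control replicate 1, and lost its call under quantile normalization (0.0647) and cyclic loess (0.0648). Averaged over their probe sets, ZBTB38 had -0.21 and SP3 -0.08, and neither passed. Without ING2 siRNA replicate 1 or 3, or control replicate 2 or 3, no gene of these families passed, and without ING2 siRNA replicate 2 or control replicate 1 there were 6 and 9 calls.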

How the data were processed

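Biotin-labelled cRNA made from total RNA of each sample went onto 1 of 6 arrays, per the labels. The deposited values were linear intensity per probe set, made with RMA and R 2.12, per the submitters' processing notes. RMA as a rule gives log2 values, and no source used here gives the step that made them linear. The number of arrays, 3 in each group, limits the precision.

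Of 54675 probe sets, 62 controls were left out; 41091 named 1 gene, 1801 several and 11721 none in the platform annotation, and only those naming 1 gene were used. All 170 ZNF symbols matched RefSeq (GRCh38.p14) by gene identifier. The log2 of each value was taken with no pseudocount or filter, and groups were compared with limma 3.58.1 (lmFit, eBayes) in R 4.3.3, with Benjamini-Hochberg adjustment over 19777 genes and a threshold of 0.05. On simulated data with 19777 genes the test recovered 51% of log2 changes of 0.5 and 94% of changes of 1, with 2 false calls. Noise was drawn for each gene independently, and 100 genes carried each size of change. Variation shared across the genes of an array was not simulated, so these false calls do not measure the rate in the real arrays.

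Members and gene lists were chosen with earlier results of these data known. Named genes were called members without overlap (up to 15 falls and 12 rises), the 5 brightest, the 3 nearest each side of the level, the role lists, and up to 3 falls and 3 rises per list of other genes; any other gene was chosen after its values were seen. These include ZNF367, the chromosome 7 run, PPHLN1 and the further probe sets. KRAB domains and fingers were not analysed here. Alternatives were other scalings, filters, probe set rules, weights, a replicate block and left-out arrays. Same-numbered arrays deviated together at r = 0.26, 0.29 and -0.02, and arrays of unlike number at r from -0.31 to 0.10. The values for replicates 1 and for replicates 2 were the highest of all, and that for replicates 3 was near 0. Whether the arrays were paired is therefore not settled, and the main fit did not take the numbers as pairs.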

Additional observations from a re-analysis of the deposited data

How the results depend on the processing

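The main counts were 9 lower and 3 higher ZNF genes, 4 changed genes of the cofactor list and 2 changed relatives. Median centring gave 18 lower and 5 relatives; quantile normalization gave 10 higher, 2 cofactors, 4 relatives and a median change over the ZNF genes of 0.0857 (-0.01 in the report); cyclic loess gave 2 cofactors. Leaving out dim genes gave 18 lower, 6 higher and 8 relatives, with 17.5% of the genes tested past the threshold, against 8.29% in the main fit. The mean of all probe sets gave 17 lower and 4 relatives, an intensity trend with robust eBayes 17 lower and 7 relatives, and array weights 23 lower, 9 higher, 7 cofactors and 11 relatives. With the replicate number as a block there were 25 lower, 8 higher and 10 relatives, and 17.7% of all genes passed. Whether the arrays were paired is not settled. Leaving out each array gave 0 to 24 lower, 0 to 7 higher, 0 to 6 cofactors and 0 to 9 relatives. At an adjusted p of 0.01 all counts were 0, and at 0.1 they were 25, 11, 8 and 12. A minimum level of 7 gave 6 higher, and one of 9 gave 4 lower, 0 higher and a median of -0.0771. Leaving out control replicate 1 and ING2 siRNA replicate 2 together, added after seeing the data, gave 37 lower, 8 higher and a median of -0.0750. The cause of these shifts was not tested.

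Changes of opposite sign arose in members near 0: under quantile normalization ZNF706 (0.0514), ZNF207 (0.0797) and ZNF593 (0.117), under cyclic loess the same genes (0.0414, 0.0578 and 0.0920), under the mean of all probe sets ZNF664 (0.0572) and ZNF346 (-0.0261), and for ZNF593 also under array weights (0.04995) and without both doubted arrays (0.111). With 1 array left out, ZNF593 ran from -0.0683 to 0.111, above 0 without ING2 siRNA replicate 3 or control replicate 1, and ZNF622 from -0.0189 (without control replicate 3) to 0.0983. None of the 12 called members turned sign. Each passed in 2 of the 6 fits that left out 1 array, and ZNF330, ZNF598 and ZNF826P passed in all 9 other fits at the threshold of 0.05 with no array left out.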

Other observations

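Among the 9 falls, ING2 siRNA replicate 2 was the highest of its group in 6 and control replicate 1 the lowest of its group in 8. In 26 further ZNF genes with a log2 change below -0.25 that did not pass, the same arrays were nearest to the other group in 25 and 21. Over all 924 genes called lower the counts were 691 and 717, so this arrangement was not confined to the ZNF genes.

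By the type of probe set that stood for the gene, 4 of 21 members with an x type passed (2 lower, 2 higher), 2 of 31 with an s type (both lower) and 6 of 118 with neither (5 lower, 1 higher). These are 19%, 6.5% and 5.1%, against 10.5% of all genes at the same level. Shares by type were not computed for other genes. Both other pseudogenes among the members did not pass.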
